A study of Mus musculus with 5 samples.

Results

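The replication-dependent histone genes, taken as every symbol that begins with Hist1h, Hist2h, Hist3h or Hist4h, made up 69 of the 21828 genes named in Ago HITS-CLIP tables of mouse liver. HITS-CLIP crosslinks RNA to Argonaute (Ago), the protein that carries miRNAs, and sequences the RNA that comes down with it. The livers were from C57BL/6 mice (C57BL/6J in the study's methods) with no transgene or treatment, taken as embryos (e12.5, e15.5 and e18.5), as pups (P7) and as adults of 6 to 8 weeks, with 1 table a stage. Where 5 values follow each other below, they run in order of age. Ago2 antibodies were used at e12.5, e15.5 and e18.5, and an Ago1 antibody was added at P7 and in the adult, so antibody and age after birth cannot be told apart. A cluster is a stretch of overlapping Ago-bound reads, and each table lists the miRNA seed matches found under its clusters. Each embryonic table held 2 lists of clusters whose origin the labels do not give. The study's methods speak of biological replicates, but no label ties a list to one. The lists were not treated as replicates, so no difference between stages could be tested, and every interval below covers counting error only.

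The core histones H2A, H2B, H3 and H4 form the protein spool on which DNA is wound, and H1 binds the linker DNA between spools. Most of their genes sit in a few clusters in the genome, have no introns and are transcribed during S phase, when new DNA has to be packaged. Their mRNAs end in a conserved stem-loop in place of a poly(A) tail, and the stem-loop binding protein Slbp governs their processing, translation and decay. Fetal liver is the main site of red cell formation and its hepatocytes divide rapidly, whereas few cells divide in the adult liver.

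Of the 69 symbols, 67 had entries in coding sequence or UTRs and are called coding genes here. The pseudogenes Hist1h2aj and Hist3h2bb-ps had exon entries only. The coding genes comprised 6 of class H1, 18 of H2A, 18 of H2B, 12 of H3 and 13 of H4. GENCODE vM21 also gave 67 coding gene models, but the 2 sets differ, since Hist1h2al had no model there. A single exon was found in 62 of the 67 gene models. Of the models, 54 lay on chromosome 13 (the Hist1 cluster), 10 on chromosome 3 (Hist2), 2 on chromosome 11 (Hist3) and 1 on chromosome 6 (Hist4). Many of these genes are near-identical, and how reads that fit several copies were placed is not given in the sources used here. Clusters with the same number of reads and a shared site as a cluster on another histone gene made up 38.4%, 46.7%, 41.6%, 40% and 57.4% of the histone clusters in order of age. Values of single genes within a class therefore cannot be fully separated from those of their copies.

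The letters that carried the pattern described further below are the seeds of abundant miRNAs and the stretches of histone coding sequence that hold their matches. The mature miRNAs below are from RefSeq (GRCm38.p6), 5′ to 3′, and the capitals mark the seed, bases 2 to 8. The first 4 share the seed AGCAGCA.
miR-16-5p: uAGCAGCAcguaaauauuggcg
miR-15a-5p: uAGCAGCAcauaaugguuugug
miR-15b-5p: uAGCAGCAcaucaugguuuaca
miR-322-5p: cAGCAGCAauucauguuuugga
miR-103-3p: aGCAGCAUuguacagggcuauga
miR-127-3p: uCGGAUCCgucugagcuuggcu
miR-652-3p: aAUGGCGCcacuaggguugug
miR-17-3p: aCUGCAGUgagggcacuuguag
miR-484: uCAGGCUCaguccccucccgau
let-7g-5p: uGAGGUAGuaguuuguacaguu
miR-451a: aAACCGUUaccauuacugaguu

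The matching stretches are given below as the tables list them (GRCm38, the mm10 build), 5′ to 3′ on the strand of the gene, with the matched bases in capitals. The match pairs with miRNA bases 2 to 7 or 2 to 8, except that in Hist1h1a and at the miR-451a site the last capital A lies opposite base 1, outside the seed. Each is shown at 1 gene that holds these letters. The miR-484 match lies just inside the coding sequence, the miR-451a match just before it, and the others within it.
H2A site of miR-15 and miR-16, Hist1h2ac, chr13:23683813-23683834, minus strand: gggccgcgtgcaccgGCTGCTc
H1 site of miR-15 and miR-16, Hist1h1a, chr13:23764092-23764113, plus strand: gcgaaagcatccgggGCTGCTA
H2B site of miR-484, Hist1h2bc, chr13:23684224-23684245, plus strand: atccgaagatgcctGAGCCTGc
H2B site of miR-103, Hist2h2bb, chr3:96270040-96270062, plus strand: acagccgtgcgtctgcTGCTGCc
H3 site of miR-127, Hist1h3a, chr13:23762195-23762216, minus strand: cgtggcgctgcgcgaGATCCGg
H3 site of miR-17-3p, Hist1h3b, chr13:23752641-23752662, plus strand: tcggccgtcatggctCTGCAGg
H3 site of let-7g, Hist1h3g, chr13:23535728-23535749, plus strand: gaggcctgtgaggcCTACCTCg
H3 site of miR-652, Hist1h3b, chr13:23752698-23752718, plus strand: gacaccaacctgtGCGCCATc
H4 site of miR-103, Hist1h4h, chr13:23531163-23531185, plus strand: aagcgccaccgcaaagTGCTGCg
H4 site of miR-143, Hist4h4, chr6:136804236-136804256, minus strand: ggcggcgtgaagcgCATCTCg
H4 site of miR-652, Hist1h4d, chr13:23581836-23581856, plus strand: cgcaagaccgtcacCGCCATg
Hist1h3g site of miR-451a, before the start codon, chr13:23535418-23535439, plus strand: atctcacttttccctACGGTTA

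Reads in Ago clusters on histone genes were abundant in the fetal liver and few in the adult liver. The highest read number of each cluster was summed over the histone clusters and divided by the sum over all clusters of the table, giving reads per 1000000 cluster reads (RPM). Histone genes held 4874, 6750, 2439, 672 and 39.7 RPM in order of age. The e12.5 value was 123-fold the adult value (95% interval 115 to 131). Scaled to the reads of clusters on mRNAs alone, which were 23.3% of all cluster reads at e12.5 and 13.5% in the adult, the fold was 71.0.

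The level fell at each step after e15.5, most steeply between P7 and the adult. The e15.5 level was 2.77-fold that at e18.5, the e18.5 level 3.63-fold that at P7 and the P7 level 16.9-fold that in the adult. As shares of mRNA cluster reads, histone genes took 2.09%, 2.28%, 0.812%, 0.328% and 0.0295% in order of age. The lists of the embryonic tables differed from each other. They gave 6290 and 4177 RPM at e12.5, while e15.5 gave 8289 and 6186 and e18.5 gave 2683 and 1507. The ranges of e12.5 and e15.5 overlapped, and every list of either stage lay above both e18.5 lists, which lay above P7 and the adult.

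The number of histone clusters followed the reads less closely. After overlapping clusters of the same table were joined, 229, 279, 214, 240 and 61 clusters named a histone gene in order of age. These were 0.110% of 208193 clusters, 0.344% of 81121, 0.278% of 76948, 0.192% of 124781 and 0.0751% of 81194. The share depended on the list, at 0.367% in the first and 0.130% in the second at e12.5, and at 1.18% and 0.346% at e15.5. The lists of e18.5 lay closer together, at 0.366% and 0.448%. In reads not scaled to the table, the median histone cluster held 173, 92, 31, 27 and 12 reads, and the median of all clusters 25, 28, 16, 14 and 20, so in the adult alone the histone median was below that of its own table.

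**Figure D1:**
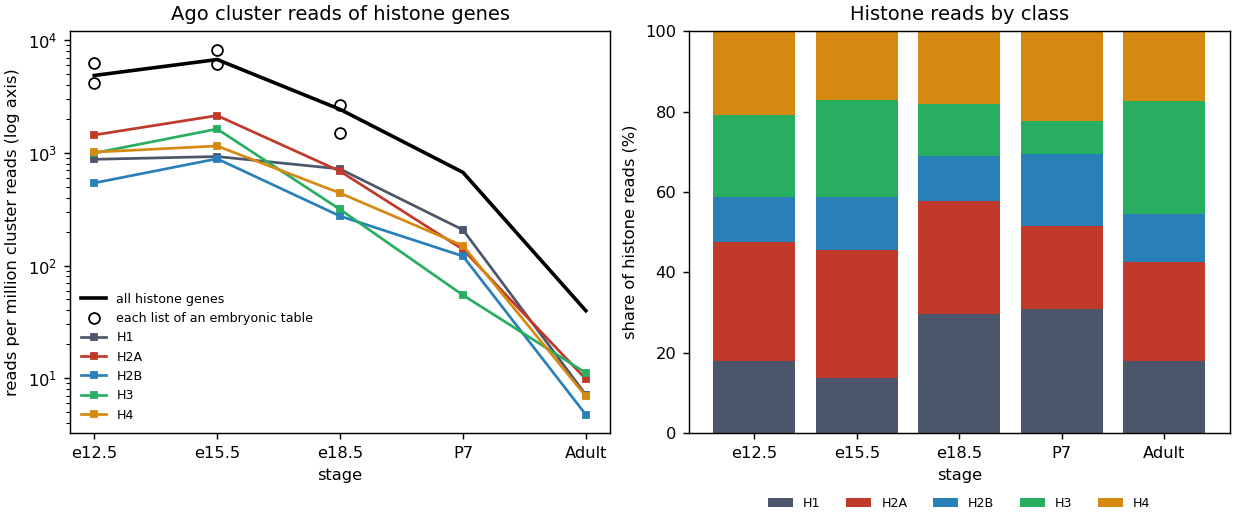
Left, RPM on a log axis at each of 5 stages for all histone genes (black line), for each list of an embryonic table (open circles) and for the 5 histone classes (coloured lines), with 1 table a stage and no error bars. Right, the share of each class in the histone reads, in percent. All 5 classes are lowest in the adult, and the H1 share is 29.6% at e18.5 and 30.9% at P7 against 13.8% to 18.0% at the other stages.

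With the clusters as listed, the fall reached every coding histone gene. For each gene, a change of 2-fold or more between a pair of libraries was counted, with a gene that a table did not list set at the 5 reads that a cluster needed. In the adult, 67 of 67 histone genes were at least 2-fold lower than at e12.5, against a background of 50% of 13126 genes. Of the 67, 27 were not listed in the adult and stand against that floor. At 4-fold the count was again 67, against a background of 34.2%. On the scale of mRNA cluster reads, 67 were 2-fold lower (background 37.5%) and 63 were 4-fold lower (background 23.9%). Over the 40 histone genes listed at both ages the median log2 difference, adult minus e12.5, was -6.97, and over all 8865 genes listed at both it was -0.86. On the mRNA scale the medians were -6.18 and -0.07.

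Between neighbouring stages the histone genes moved less uniformly. From e12.5 to e15.5, 8 of 67 were at least 2-fold higher (background 23.5%) and 7 were 2-fold lower (background 27.5%). On the mRNA scale 2 were higher (background 18.3%) and 8 lower (background 34.1%). From e15.5 to e18.5, 45 of 66 were 2-fold lower (background 32.1%). From e18.5 to P7, 50 of 66 were lower (background 29.5%), and on the mRNA scale 38 were (background 19.9%). On that scale 6 were 2-fold higher (background 40.5%), 5 of them H2B or H2A genes and the other Hist1h4d. From P7 to the adult, 59 of 63 were lower (background 50.3%). The 4 that were not were Hist1h1t, Hist1h2bm, Hist2h2be and Hist2h3c1.

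The stage with the highest level was e15.5 for 51 of 67 histone genes, against a background of 22.0%. It was e12.5 for 12 genes (background 22.1%), e18.5 for the 3 genes Hist1h1e, Hist2h2be and Hist3h2ba (background 23.8%), and P7 for Hist1h2bp alone (background 20.4%). No histone gene was highest in the adult, where the background was 11.7%. On the mRNA scale the count at e15.5 was 34 (background 15.6%) and that at e12.5 was 29 (background 25.1%), so the lead of e15.5 was narrower on that scale. Of the 67 genes, 39 were listed in all 5 libraries (background 45.5%), and 27 were listed at e12.5 and not in the adult (background 25%).

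**Figure D2:**
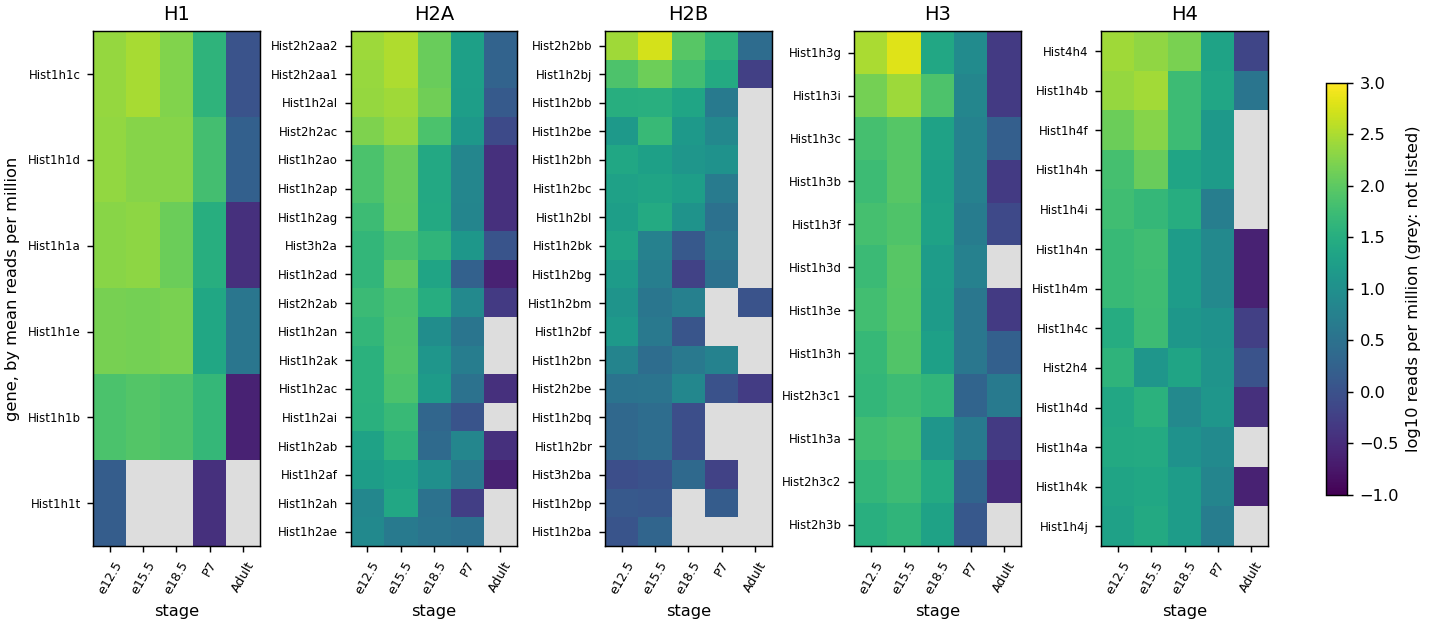
Heat maps of log10 RPM for the 67 coding histone genes (rows, by class, in order of their mean) at the 5 stages (columns), with grey for a gene not listed in a table. The adult column is dark or grey in every row, and most H2B genes (14 of 18) are grey there.

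H1 genes, which encode the linker histones, fell least of the 5 classes from e15.5 to e18.5. H1 held 878, 929, 721, 207 and 7.11 RPM in order of age. From e15.5 to e18.5 the H1 level fell 1.29-fold, while the 4 core classes fell between 2.62-fold (H4) and 5.18-fold (H3). From e18.5 to P7 it fell 3.48-fold, more than H2B (2.27-fold) and H4 (2.93-fold). Over the whole span from e12.5 to P7 the falls of H1 (4.23-fold) and H2B (4.46-fold) were close, and their order turned with the second list of e12.5 (3.47-fold and 3.33-fold). H1 took 18.0%, 13.8%, 29.6%, 30.9% and 17.9% of histone reads in order of age. The H1 share at e18.5 was 30.1% in the first list and 26.2% in the second, and at e15.5 it was 13.8% in each. Counting clusters with the same number of reads and a shared site once, a rule chosen after seeing the data, gave H1 shares of 18.7%, 14.4%, 31.1%, 35.4% and 21.8% in order of age.

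Hist1h1c, a linker histone that is also made outside S phase, held 230, 301, 177, 39.9 and 1.04 RPM in order of age. Hist1h1d held 228, 185, 185, 64.9 and 1.69 in the same order, and was nearly flat from e15.5 to e18.5. Hist1h1a, the H1.1 subtype, held 193, 209, 126, 31.7 and 0.362, and its e12.5 level was 534-fold its adult level. Hist1h1e was the H1 gene with the smallest such fold, 39.9, with 151, 148, 156, 24.1 and 3.78 RPM. Hist1h1b held 73.9, 85.8, 76.3, 46.5 and 0.241, so its P7 level was within 1.59-fold of that at e12.5. Hist1h1t, the testis linker histone, was listed only at e12.5 (68 reads) and P7 (6 reads).

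H2A was the class with the most reads at e12.5 and e15.5 as listed, but with copies counted once by the same rule H4 led at e12.5, with 26.2% of histone reads against 22.1% for H2A. H2A held 1443, 2148, 688, 139 and 9.81 RPM in order of age, a 147-fold fall from e12.5 to the adult. The near-identical pair Hist2h2aa1 and Hist2h2aa2 led the class. Hist2h2aa2 held 256, 339, 123, 19.03 and 1.89 RPM, and Hist2h2aa1 differed from it by little. Hist1h2al held 232, 273, 135, 17.6 and 1.37, and Hist2h2ac held 167, 230, 73.8, 13.4 and 0.804. Of the 18 H2A genes, 13 were listed in the adult. Copies weighed most here, since clusters with a copy elsewhere held 67.4% of the H2A reads at e12.5 and 82.0% in the adult. Hist2h2aa2 and Hist2h3c1 also share their locus with the noncoding transcript Gm20634, and Hist3h2a with Trim17, and 62 and 39 clusters named those genes too.

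H2B was led by a single gene. The class held 541, 888, 275, 121 and 4.74 RPM in order of age. Hist2h2bb alone held 265, 558, 92.6, 39.6 and 2.61 of these. Hist1h2bj followed with 77.6, 130, 61.1, 28.1 and 0.563. Hist1h2bb (31.6, 33.9, 22.2 and 4.30) and Hist1h2be (13.9, 49.2, 14.1 and 7.27) were not listed in the adult. Only 4 of 18 H2B genes were listed in the adult, namely Hist2h2bb, Hist1h2bj, Hist2h2be and Hist1h2bm. The last of these was not listed at P7 and had 26 reads in the adult, against 520 at e12.5.

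H3 fell most up to P7 and least after it. It held 996, 1632, 315, 54.6 and 11.1 RPM in order of age. From e12.5 to P7 the fall was 18.2-fold, against 4.23-fold for H1, and from P7 to the adult it was 4.91-fold, against 14.2-fold to 29.2-fold for the other classes. Without Hist2h3c1, described below, the fall from P7 to the adult was 7.76-fold. Hist1h3g accounted for much of the early signal, with 314, 630, 24.8, 8.42 and 0.482 RPM in order of age. Its e12.5 level was 652-fold its adult level, the widest ratio among the 40 genes listed at both ages. Hist1h3i held 148, 261, 77.6, 6.79 and 0.482, Hist1h3c held 65.3, 88.7, 20.2, 5.88 and 1.61, and Hist1h3b held 56.1, 91.0, 18.7, 5.82 and 0.482.

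Hist2h3c1 was the exception within H3. It held 44.6, 55.0, 42.3, 1.94 and 4.34 RPM in order of age, so the adult level was 2.24-fold that at P7. This was 108 reads in the adult, the most of any histone gene there. Of these, 100 were in clusters whose listed sites lay downstream of the stem-loop, up to 878 bases past it over the 5 tables, in the stretch that Gm20634 also covers.

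H4 held 1016, 1153, 440, 150 and 6.91 RPM in order of age. Hist4h4, which lies alone on chromosome 6, held 268, 216, 158, 20.9 and 0.683. Hist1h4b held 234, 282, 55.2, 23.2 and 3.54, and Hist1h4f held 126, 186, 55.7 and 14.4 and was not listed in the adult. Hist1h4h (66.3, 122, 22.3 and 15.9) was also not listed there. Of the 13 H4 genes, 8 were listed in the adult. Per kilobase of coding sequence, the median gene at e12.5 held 223 RPM in H1, 158 in H4, 137 in H3, 89.0 in H2A and 32.3 in H2B, and in the adult no class median exceeded 1.17.

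Within the messages, histone clusters lay in coding sequence more often than clusters on mRNAs did as a whole. The share of histone clusters with a coding-sequence entry was 77.3% (95% Wilson interval 71.4 to 82.2 at e12.5), 88.5%, 83.2%, 82.1% and 88.5% (78.2 to 94.3 in the adult). Over all mRNA clusters it was 61.3%, 62.8%, 63.4%, 65.5% and 72.9%. The intervals of the histone shares lay above the mRNA values at every stage as listed, but they count copies as separate clusters. With copies that share reads and a site counted once, the shares were 73.3%, 85.6%, 79.2%, 78.0% and 83.8%. The adult share then rested on 37 clusters, and its interval (68.9 to 92.3) held the mRNA value, while the intervals of the other 4 stages still lay above theirs. In the gene models, coding sequence made up 43.2% of histone transcript bases and 3′ UTR 49.3%. A few models with long 3′ UTRs weighed on this, such as Hist1h1d (4931 of 30821 3′ UTR bases) and Hist4h4 (2515). Mature messages end just past the stem-loop, so these shares are no baseline for the coding share of clusters.

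The 3′ UTR share was lower for histone genes, at 30.1%, 15.1%, 16.4%, 15% and 13.1% in order of age, against 41.5%, 40.4%, 38.0%, 36.9% and 29.7% of all mRNA clusters. At e12.5 it was 16.9% in the first list and 28.7% in the second, and 22.5% when the lists were not joined. The 5′ UTR share went the other way, at 18.8%, 12.9%, 12.6%, 9.17% and 3.28% against 5.27%, 4.70%, 5.89%, 5.20% and 5.47%. It exceeded the mRNA value through P7, while in the adult it rested on 2 clusters. A cluster can have entries in several regions, so the shares add to over 100%.

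**Figure D3:**
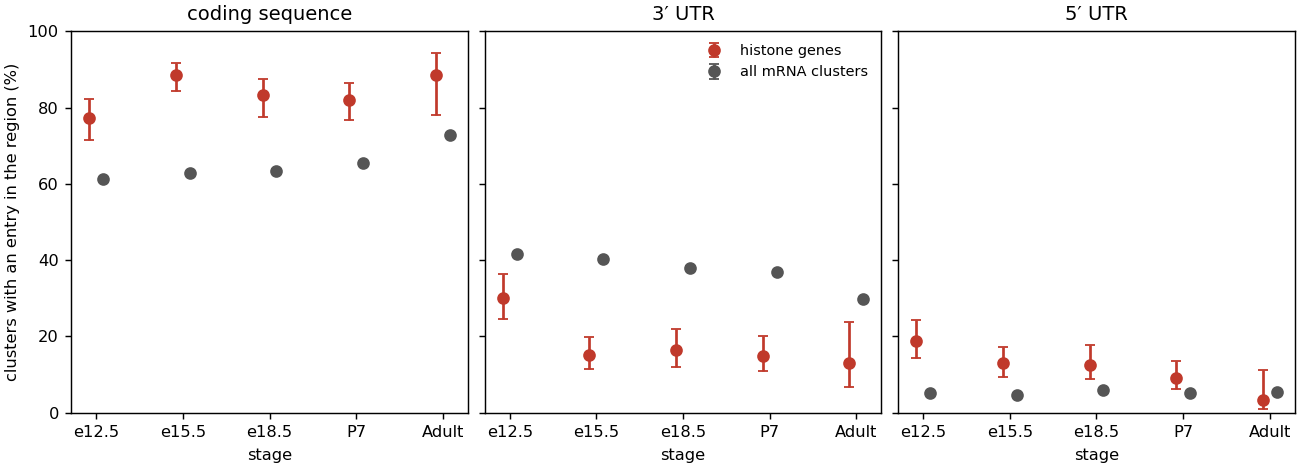
Share of clusters, in percent, with an entry in coding sequence (left), 3′ UTR (middle) and 5′ UTR (right) at each stage, for histone genes (red) and all mRNA clusters (grey), with 95% Wilson intervals that cover counting error only. The red points lie above the grey ones in coding sequence and below them in the 3′ UTR at all 5 stages.

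Many of the deepest clusters ran across the start codon. Such clusters numbered 47, 38, 24, 18 and 4 in order of age. They held 31.1%, 31.7%, 18.1%, 11.6% and 8.18% of the histone reads placed on a gene model. Hist1h3g led them at e12.5 with 10544 reads, ahead of Hist2h2bb with 8590 and Hist4h4 with 5961. Without Hist1h3g the shares were 28.0%, 25.9%, 17.8%, 11.4% and 8.28%, so the decline did not rest on that gene. Clusters across the stop codon numbered 40, 26, 15, 12 and 1.

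The stem-loop was found in the letters of 60 of the 67 coding gene models, as the motif GGNNNNTTTNNNNNCC on the coding strand with complementary arms of 6 bases, within 200 bases after the stop codon. It began 22 to 59 bases past the stop codon. The same search found it in 8 of 21565 other coding genes (0.0371%). Clusters that reached it numbered 36 of 196, 13 of 248, 13 of 193, 15 of 215 and 2 of 57, with 19.5%, 3.21%, 4.07%, 5.71% and 1.72% of the reads. Hist1h4b, Hist4h4 and Hist2h2bb led at e12.5 with 8380, 7724 and 5424 reads.

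Clusters whose listed sites all lay past the stem-loop were found at every stage. They numbered 19, 7, 12, 9 and 3 in order of age, with 2.41%, 2.31%, 3.14%, 1.93% and 13.1% of the reads. Where their reads began and ended was not measured. Mature replication-dependent messages end just past this element. Up to P7 Hist1h1c held most reads of these clusters, with 3796, 2034, 713 and 125, and none in the adult. Its listed sites reached 800 bases past the stem-loop. Hist3h2a held 377, 136, 5, 40 and 22 of these reads, and Hist2h3c1 held 34 at e12.5, 183 at e18.5 and 100 in the adult, where it led. At e15.5 the deepest single H1 cluster was of this kind, with 1396 reads. Its listed sites lay in the annotated 3′ UTR of Hist1h1c, 1138 to 1216 bases from the start codon.

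Along the coding sequence, clusters of many genes of H2A, H3 and H4 overlapped at the same positions, and those of H2B did so less after e15.5. Where the same reads are listed at several copies, such overlap follows, and how far this was so was not tested. In H2B the most genes covered at any position were 13, 11, 8, 6 and 1 of 14 in order of age. For genes with the usual coding length of their class, counted from the A of the start codon, all 11 H3 genes were covered over 274, 108 and 100 of 411 bases in the embryonic libraries. At P7 all 11 were covered over 39 bases, from 332 to 370. In the adult at most 8 H3 genes were covered, over 24 bases from 315 to 338, and each of the 8 had the same 12 reads there. All 13 H4 genes were covered at some position at every stage up to P7, and at most 4 in the adult. At e12.5 every base of the H2B coding sequence lay under a cluster of some H2B gene, and in the adult 14.7% did.

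**Figure D4:**
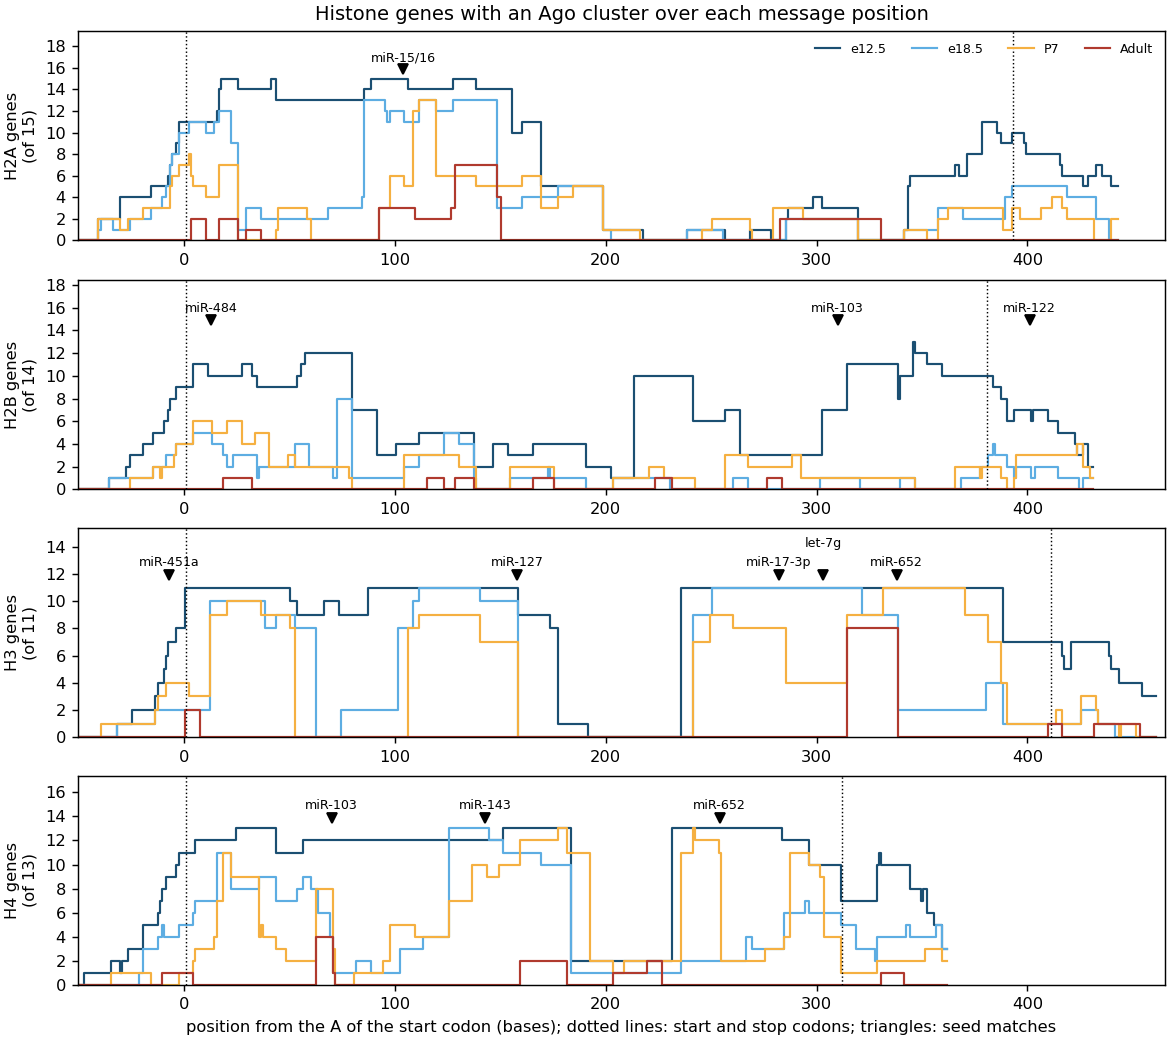
Number of genes of each core histone class with an Ago cluster over each position, in bases from the start codon, for genes of the usual coding length (15 H2A, 14 H2B, 11 H3 and 13 H4) at e12.5, e18.5, P7 and in the adult. Triangles mark the seed matches named in the text and dotted lines the start and stop codons. The curves of e12.5 reach all 11 H3 and all 13 H4 genes, and the adult curves reach 8 and 4.

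Under histone clusters, seed matches of 693 miRNAs were listed over the 5 tables, 533 of them at e12.5. A listed site records that the letters of a seed match lie under an Ago cluster, and does not show which miRNA brought Ago there. Among the 100 most abundant miRNAs of a table, at least 1 had a site in 67.7%, 53.8%, 59.8%, 43.8% and 37.7% of histone clusters in order of age. All mRNA clusters gave 46.2%, 49.9%, 46.2%, 42.5% and 46.9%. The median span of the listed sites was 50, 25, 33, 31 and 16 bases in histone clusters in order of age, against 19, 16, 15, 17 and 17 over all mRNA clusters. It was thus the wider in histone clusters up to P7. A span measures listed sites and not reads, so it is not separate from the number of sites in a cluster. Among listed clusters of like span, with the lists not joined, the histone shares at e12.5 were 23.8% against 33.5% under 20 bases, 53.7% against 59.5% from 20 to 60 bases and 90.9% against 85.4% above 60. In the adult they were 45.7% against 36.0% under 20 bases and 26.9% against 60.1% from 20 to 60 bases, and no histone cluster had a wider span.

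The miRNAs with sites in most clusters differed between classes. The miRNAs described were taken from the 100 most abundant of a library, and their shares count every site over the 5 tables, whatever the rank in a library. In H2A and H1 they were miR-15a, miR-15b and miR-16, which share 1 seed, and miR-322-5p and miR-195a-5p, named after their values were seen, tied with miR-15b in both classes. Their sites lay in 35.9% of H2A clusters over the 5 tables and miR-15b sites in 20.6% of H1 clusters, against 4.32% to 4.41% of all mRNA clusters. In H3 they were miR-652-3p (29.3% of clusters against 0.415% of all mRNA clusters), miR-17-3p (23.9% against 1.99%) and miR-127-3p (22.3% against 0.493%), while miR-744-5p, which reached the 100 most abundant in 1 library, had sites in 21.7% (against 0.409%). With sites counted only in libraries where the miRNA was among the 100 most abundant, which was 3 for miR-652-3p, 2 for miR-17-3p and 4 for miR-127-3p, the shares of these 3 were 17.9%, 13.04% and 22.3%, with miR-127-3p first. In H4 they were miR-652-3p (24.6%), miR-143-3p (23.6% against 0.845%) and miR-103-3p (11.6% against 3.74%), while miR-431-5p, which reached the 100 most abundant in 1 library, had sites in 19.6% (against 0.522%). In H2B the shares were lower, at 7.17% each for miR-103-3p and miR-122-5p (miR-122-5p against 2.07%) and 5.91% for miR-484 (against 1.61%), while miR-24-3p, among the 100 most abundant in 3 libraries, had sites in 10.97% (against 1.18%). miR-744-5p, miR-431-5p and miR-24-3p were chosen after their values were seen. Genes of a class share most of their letters, so these shares count copies of a site rather than independent sites.

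The H2A matches of miR-15 and miR-16 clustered at 1 place. At position 104 from the start codon, in codon 35, 14 of the 15 H2A genes of the usual length held the letters GCTGCT, and all 14 had a listed site there. Clusters over it were listed for 14, 12, 12, 6 and 3 genes in order of age, with 14 to 219, 8 to 96, 6 to 130, 9 to 28 and 12 to 18 reads. The tables rank miR-16 between 2 and 6 in every stage, from the number that each entry carries beside the miRNA name, taken here as its abundance. In H1 the commonest position of the miR-15b sites was 396, in Hist1h1a alone, with 1114 to 1902 reads at e12.5 and 9 in the adult. It lay under 5 of the 32 H1 clusters with a miR-15b site, and those sites were spread over 4 genes.

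In H3 the seeds of the 3 miRNAs named first matched coding sequence that nearly every gene shares. The miR-127-3p match at position 158 was held and listed by 10 of 11 genes, with 13 to 991, 49 to 258 and 6 to 55 reads in the embryonic libraries and 5 to 21 at P7 (7 genes), and was not listed in the adult. The miR-17-3p match at position 282 was held by all 11, with 76 to 335 reads at e12.5 and 7 to 22 at P7 (8 genes), and was not listed in the adult. The miR-652-3p match at position 338 was held by 10, with 429 to 1170, 386 to 586 (8 genes) and 11 to 71 reads (8 genes) in the embryonic libraries, 7 to 22 at P7 and 12 in each of 8 genes in the adult. Of the 3 it was the one still listed in the adult. Over these ages miR-127-3p ranked 13, 7, 11, 20 and 135 in abundance, and miR-652-3p ranked 34, 83, 48, 115 and 108.

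The let-7g match at position 303 was in 5 of the 11 H3 genes, chosen after its values were seen. Its clusters held 395 to 956, 269 to 527 and 21 to 89 reads in the embryonic libraries and 11 at P7 (3 genes), and none was listed in the adult.

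In H4 the miR-143-3p match at position 143 was present in all 13 genes. Clusters over it were listed for 12, 12, 13 and 10 genes up to P7, with 38 to 4157, 12 to 1181, 11 to 1110 and 15 to 49 reads, and for none in the adult. Hist4h4 held the 4157 reads. The miR-652-3p match at position 254 was in 11 genes, with 109 to 240 and 32 to 110 reads at the earliest stages, none at e18.5 and 5 to 10 at P7. The miR-103-3p match at position 70 was in 6 genes and was the H4 site of the 3 still listed in the adult, in 3 genes with 6 reads each.

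In H2B the miR-103-3p letters at position 310 were in 13 of 14 genes and listed in 7 at e12.5 (8 to 1018 reads). They were listed in 1 gene at e15.5 (254 to 343 reads), 1 at e18.5 (10 to 220) and 1 at P7 (65). The miR-484 match at position 13, next to the start codon, was in 5 genes and listed in all 5 at e12.5 (22 to 297 reads). The miR-122-5p match at position 401, past the stop codon, was in 3 genes (30 to 145 reads at e12.5). The miR-484 and miR-122-5p matches were also listed, in fewer genes, at e15.5, e18.5 and P7. None of the 3 matches was listed in the adult, where miR-122-5p ranked 3 in abundance.

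The deepest histone clusters of all lay over the start of Hist1h3g, with 7807 reads in a list of e12.5 and 8025 in a list of e15.5. They held a match of miR-451a at position -7, just before the start codon, a place chosen after its values were seen. Clusters over it held 2737 to 7807 reads in the first of these libraries, 886 to 8025 in the second, 44 to 98 at e18.5 and 36 at P7, and none was listed in the adult. No other H3 gene of this length held the letters at that position. miR-451a, a miRNA made in red cell precursors, ranked 3, 5, 7, 47 and 22 in abundance.

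The site types were weaker on histone genes. Matches of 6 bases made up 56.3% to 60.6% of histone sites of all regions over the 5 tables. Of all coding-sequence sites they made up 51.7% to 52.8%. In coding sequence the longest type, the 8mer, made up 2.41% to 4.45% of histone sites against 7.58% to 8.41% of all coding-sequence sites. The deposited conservation score of histone coding sites had a median of 0.886 to 0.962, against 0.947 to 0.986 for all coding sites, and was the lower of the 2 at each stage.

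The summed levels of replication-independent histone genes, histone mRNA factors and chaperones fell by smaller folds than that of the histone genes. Among 11 histone genes taken as replication-independent, 10 were at least 2-fold lower in the adult than at e12.5 (background 50%) and 8 on the mRNA scale (background 37.5%), and the summed level fell 11.2-fold. H2afx, whose product marks DNA breaks, held 248, 296, 207, 73.9 and 2.57 RPM in order of age, a 96.2-fold fall from e12.5 to the adult. It held 248 of the 491 RPM of this list at e12.5, so the summed fold leans on this gene. H1f0, the linker histone of cells that have stopped dividing, held 52.7, 38.8, 82.3, 51.8 and 23.6, the highest adult level of this list. H3f3b, which encodes H3.3, held 66.6, 75.5, 63.8, 38.5 and 4.78.

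Of 17 histone mRNA factors 15 were listed at e12.5 or in the adult, and 14 of these were 2-fold lower in the adult (background 50%). On the mRNA scale 9 of the 15 were (background 37.5%). The sum fell 6.87-fold. Slbp, which binds the stem-loop, held 40.1, 73.5, 18.3, 4.67 and 0.603 RPM in order of age. Upf1, a helicase of histone mRNA decay, held 82.4, 107, 45.2, 67.0 and 14.6, and Eri1, the exonuclease that trims the stem-loop end, held 58.8, 48.0, 11.8, 20 and 0.683. All 20 histone chaperones were 2-fold lower (background 50%) and 16 on the mRNA scale (background 37.5%), with an 11.2-fold fall in their sum. They were led by Supt16 (174, 159, 71.3, 41.3 and 10.4), a subunit of FACT. Npm1, the nucleolar chaperone nucleophosmin, held 152, 98.5, 16.8, 5.94 and 0.482, a 316-fold fall that was larger than that of the histone sum. Atrx, a partner of the H3.3 chaperone Daxx, held 40.8, 74.8, 39.0, 32.0 and 9.81.

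Of these 4 lists, the S phase and proliferation genes had the fold closest to that of the histone genes. All 28 were at least 2-fold lower in the adult on both scales (backgrounds 50% and 37.5%), and their sum was 2747, 3343, 1400, 614 and 31.7 RPM in order of age, an 86.6-fold fall. Mki67, the proliferation marker Ki-67, held 336, 695, 313, 186 and 0.281. Top2a, the topoisomerase of dividing cells, held 472, 668, 261, 68.1 and 1.21. Rrm1, a subunit of ribonucleotide reductase, held 533, 283, 111, 22.9 and 2.65. Scaled to all cluster reads, the sums of this list and of the histone genes were both highest at e15.5. On the mRNA scale the S phase sum fell from 11792 to 11266 between e12.5 and e15.5, while the histone sum went from 20924 to 22751.

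Markers of cell types in the bulk liver moved over the same ages. Of 11 erythroid markers 10 were listed, all 10 at least 2-fold lower in the adult (background 50%), and their sum was 66509, 90029, 96317, 34564 and 1637 RPM in order of age. Most of this sum came from Hba-a1 and Hba-a2, near-identical copies with nearly the same reads, and the other 8 markers summed to 6921, 15803, 6421, 2080 and 139.7 RPM, highest at e15.5. All 10 hepatocyte markers were at least 2-fold higher in the adult (background 24.3%, and 31.2% on the mRNA scale), with sums of 1014, 3169, 9882, 10159 and 11755, which bears out the tissue label, and Cyp2e1 was not listed at e12.5 or e15.5. Of 6 immune and Kupffer markers 5 were higher (background 24.3%) and none lower (background 50%), with sums of 12.3, 52.2, 238, 115 and 140. On the mRNA scale all 6 were higher (background 31.2%). Clec4f, Cd68 and Cd74 were not listed at e12.5 or e15.5. Of 6 endothelial and stellate markers 3 were higher (background 24.3%) and 3 lower (background 50%), with sums of 57.5, 74.2, 106, 293 and 156. On the mRNA scale 3 were higher (background 31.2%) and 2 lower (background 37.5%). The part of these shifts in the histone values was not tested, and in bulk tissue fewer cells of a type and less bound RNA in each cell cannot be told apart.

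**Figure D5:**
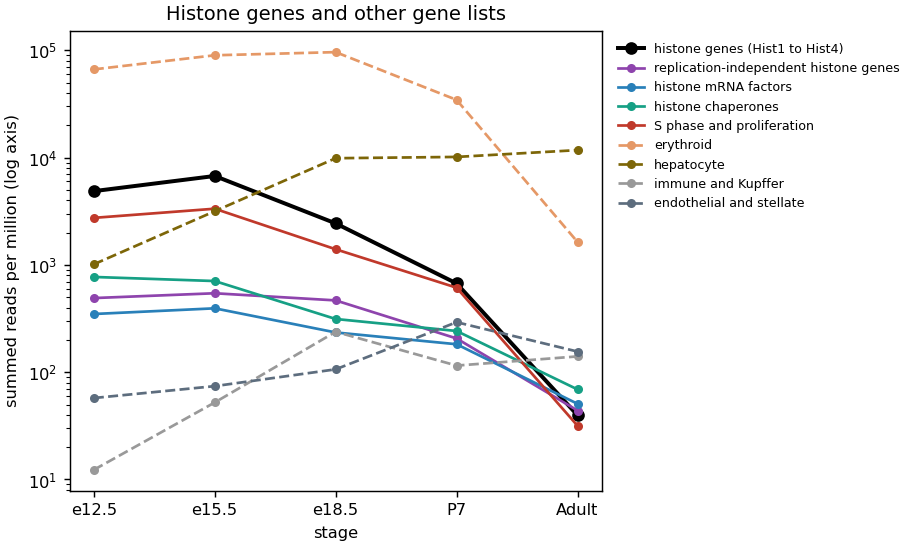
Summed RPM, on a log axis, at each stage for the histone genes (black), 4 lists of related genes (solid lines) and 4 lists of cell type markers (dashed lines), with 1 table a stage and no error bars. Histone genes and S phase genes fall to 39.7 and 31.7 in the adult, the hepatocyte list rises to 11755, and the erythroid list falls to 1637.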

How the data were processed

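Ago HITS-CLIP was analysed from 5 tables, 1 for each stage. The authors cleaned reads with the FASTX-Toolkit and aligned them (Bowtie) to mm10 and, for miRNAs, miRBase v19. Overlapping reads were merged into clusters, which were annotated (UCSC refGene, Ensembl) and searched for miRNA seed matches. The submitters' processing notes also name mm9. Versions, the handling of reads with several best matches and any pooling are not given in the sources used here. Levels rest on a signal that the authors deposited without scaling, namely each cluster's peak read number (at least 5). At e12.5 its header names it differently from the other tables. Conservation was deposited as a fraction for each site. The authors also gave a folding energy (a score), which was not used in the text. Neither program is given in the sources used here.

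A gene's level was the sum of its clusters on coding sequence or UTRs, with each cluster counted once, over the summed reads of all clusters, which were 44867326, 16519549, 13008703, 16499162 and 24885228 from the youngest to the oldest stage. For counts of clusters, overlapping same-strand spans of a table were joined, where a span runs over the listed sites and not the reads. Positions came from GENCODE vM21 (GRCm38), on which 3607 of 3759 histone site spans could be placed. RefSeq names matched 605 of 693 miRNAs. Named genes were drawn from the 4 of each class with the highest mean, those listed in every library, the leading 3 of each list and the 3 leading miRNAs of a class among the 100 most abundant of a library; others are said to be exceptions or to have been chosen after their values were seen. The histone rule, gene lists and markers were chosen with earlier results of these data known. With 1 sample a stage there is no test, and Wilson intervals at 95% cover counting error only, since PCR reads are not independent molecules. Scripts (Python 3.11.15, pandas 2.3.3) were tested on simulated data. Alternatives changed the minimum reads, the lists, the scaling, the fold, the handling of copies and shared genes, the seed length and the number of miRNAs.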

Additional observations from a re-analysis of the deposited data

How the results depend on the processing

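Over 12 results and 13 alternative settings, 56 of 101 values stayed within the spread allowed for the reported one and 45 moved. The following 3 settings were chosen after seeing the data: the scaling to mRNA cluster reads, counting copies that share reads and at least 1 site once, and not joining the lists. No paired analysis was possible because each stage has 1 table.

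The histone share of clusters at e12.5 (0.110%) was 0.126% with at least 10 reads in a cluster, 0.157% with the same floor of 0.384 RPM in every library, 0.367% and 0.130% in the first and second list, 0.0918% with copies sharing reads counted once and 0.198% without joining. The adult share (0.0751%) was 0.0566% at either floor and 0.0456% with copies counted once by either rule. Histone RPM at e12.5 (4874) were 4901 with at least 10 reads, 4959 at the same floor, 6290 and 4177 in the lists, 4544 for clusters that name no other gene, 4215 with near-identical copies once, 3731 with copies sharing reads once, 3221 on the study's sequencing totals and 20924 on mRNA reads. The adult level (39.7) was 32.8 at either floor, 32.4 without other genes and on the sequencing totals, 29.4 with copies once by either rule and 295 on mRNA reads. Their ratio (123) was 149.5 with at least 10 reads, 151 at the same floor, 158 and 105 in the lists, 140.3 without other genes, 144 with near-identical copies once, 99.5 on the sequencing totals and 71.0 on mRNA reads.

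The coding share at e12.5 (77.3%) was 85.5% in the first list and 82.5% without joining, and that of the adult (88.5%) was 94.3% without other genes. The 3′ UTR share at e12.5 (30.1%) was 16.9% in the first list and 22.5% without joining. Histone genes listed in the adult (40) were 26 at either floor and 25 with copies once by either rule. The share of e12.5 histone clusters with a site of an abundant miRNA (67.7%) was 43.2% for sites of at least 7 bases and 49.8% for the top 50 miRNAs. The adult histone values rest on 988 reads in 61 clusters.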
